A study of Homo sapiens with 48 samples.

Results

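The RNAs that DLD-1 cells still lost after CNOT1 had been depleted were followed over 12 h of blocked transcription. DLD-1 is a human colorectal cancer cell line. The 8 libraries, of 48 in the series, were those labelled as CNOT1-AID cells given triptolide. In these cells CNOT1 carries an auxin-inducible degron (AID) at its own genomic locus, and the cells also make TIR1, the plant protein through which auxin sends AID-tagged proteins to the proteasome. The cells had 1 mM auxin for 2 h and then 1 µM triptolide, a drug that stops transcription initiation, and total RNA was taken at 0 h, 3 h, 6 h and 12 h of triptolide, with 2 libraries per time. The parental cells, which are TIR1+ and carry no tag, had the same auxin and triptolide and gave 8 further libraries. CNOT1-AID and parental cells had the same auxin pretreatment, so the effect of the tag itself and that of the depletion cannot be told apart between them. CNOT4-AID cells with the same auxin and triptolide gave another 8 libraries, which entered the fit of all 24 triptolide libraries and are not described here. CNOT1-AID cells that had 1 mM auxin for 8 h or 24 h, or were left untreated, gave 2 libraries per group for a separate comparison without triptolide. Parental and CNOT4-AID libraries of the same treatments entered the fit of that comparison. The labels did not say whether the tagged line is 1 clone, or whether the 2 libraries of a group came from separate cultures, and the p-values rest on the spread between libraries, which could be technical in part or in whole.

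CNOT1 is the scaffold of CCR4-NOT, the complex that shortens the poly(A) tails of most cytoplasmic mRNAs and so opens them to decapping and degradation. Some RNAs are degraded or processed by routes that need no shortening of a tail. Replication-dependent histone mRNAs end in a conserved stem-loop in place of a poly(A) tail, primary microRNA transcripts are cut in the nucleus by Drosha, and snoRNA host transcripts with premature stop codons are targets of nonsense-mediated decay (NMD), which can begin with an internal cut. The question addressed was which RNAs go on falling when the deadenylase scaffold is missing.

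Reads assigned to genes and spike-ins numbered 18980935 to 26723618 per CNOT1-AID library and 18216427 to 24219160 per parental library. ERCC spike-ins, synthetic RNAs added at a fixed amount per mass of RNA, took 0.941% to 1.5% of the CNOT1-AID reads and 1.16% to 2.11% of the parental reads. Values are therefore levels per mass of RNA: a change in total RNA per cell is not seen, and fewer cells and less RNA per cell cannot be told apart in bulk samples. Replicate pairs of the CNOT1-AID line correlated at 0.996 to 0.998 across genes (log2 CPM, counts scaled to library size, a description in which genes are not independent), but the ERCC share of replicate 2 differed from that of replicate 1 by -0.07, -0.40, -0.26 and 0.33 on the log2 scale at 0 h, 3 h, 6 h and 12 h. The parental pair of 0 h agreed less, at a correlation of 0.977. The SD of its log2 differences between replicates was 0.52, against 0.19 for the CNOT1-AID pair of 0 h. In parental pairs the ERCC share differed by 0.29, 0.11, -0.65 and 0.20 at these times. Parental changes and slope differences rest in part on that 0 h pair. Of 12 colon epithelium markers 11 reached 1 CPM and none was at 0. Of the markers of other cell types, 0 of 7 for fibroblasts, 1 of 4 for endothelium, 1 of 6 for blood and 1 of 4 for nerve cells reached that level. The level of CNOT1 mRNA does not check the depletion, which acts on the protein.

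The sequences that end the replication-dependent histone mRNAs are shown first because these mRNAs were the most uniformly lost group of coding transcripts. Each line is a stretch of 26 bases of the 3′ UTR, written as DNA on the mRNA strand from the GENCODE 29 transcripts (GRCh38), with the letters that match the histone stem-loop motif in capitals. The windows lie at chr6:26026896-26026921 on the minus strand, chr6:26199963-26199988 and chr6:26225591-26225616 on the plus strand, and chr1:228457364-228457389 on the minus strand.
HIST1H4B: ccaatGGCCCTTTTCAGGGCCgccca
HIST1H2BF: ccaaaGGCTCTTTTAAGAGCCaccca
HIST1H3E: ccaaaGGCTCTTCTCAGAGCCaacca
HIST3H2A: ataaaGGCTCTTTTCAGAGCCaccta
The motif was found in 28 of 33 histone mRNAs with an annotated 3′ UTR (84.8%) and in 7 of 12341 other mRNAs (0.0567%). It was searched on the transcript strand, and a match describes these letters and is not a measured processing site.

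The mature microRNAs of 2 host transcripts are shown because those hosts were among the most completely lost RNAs. They are RefSeq sequences (GRCh38.p14) with the seed, bases 2 to 8, in capitals. MIR17HG holds several microRNAs, and these 4 share 2 seeds.
miR-17-5p: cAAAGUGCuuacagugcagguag
miR-20a-5p: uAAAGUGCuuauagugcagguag
miR-19a-3p: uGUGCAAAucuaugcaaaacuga
miR-19b-3p: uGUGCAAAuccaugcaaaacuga
They lie at chr13:91350618-91350640, chr13:91351072-91351094, chr13:91350939-91350961 and chr13:91351245-91351267. MIR222HG holds miR-221 and miR-222, which share 1 seed, at chrX:45746180-45746202 and chrX:45747036-45747056 on the minus strand.
miR-221-3p: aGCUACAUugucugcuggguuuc
miR-222-3p: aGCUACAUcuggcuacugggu
The libraries measured the host transcripts, not these mature microRNAs.

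After CNOT1 depletion a minority of RNAs fell. Of 15652 genes tested, 736 (4.7%) were lower at 3 h than at 0 h, 1866 (11.9%) at 6 h and 2377 (15.2%) at 12 h. Genes that were higher numbered 312 (1.99%), 171 (1.09%) and 106 (0.677%) at the same times (edgeR's quasi-likelihood test, Benjamini-Hochberg adjusted p below 0.05, 2 libraries per time). The median gene kept 85.7% of its 0 h level at 12 h. Of protein-coding genes alone, 1184 of 12660 (9.35%) were lower at 12 h, so the share over all genes is above that of mRNAs. In a fit over all 24 triptolide libraries and 16806 genes, 2079 genes (12.4%) were lower at 12 h in CNOT1-AID cells and 8336 (49.6%) in parental cells. This fit also held the CNOT4-AID libraries and is called the 24-library fit or the fit of both lines below. The 1771 genes lower in both lines made up 85.2% of the CNOT1-AID genes and 21.2% of the parental genes. A straight line through the 4 times, in log2 per hour, fell for 2640 genes (16.9%) and rose for 33 (0.211%) in the 8 libraries. Falling slopes were 1687 without replicate 2 of 0 h and 1732 without replicate 2 of 12 h, and rising ones 69 without replicate 2 of 3 h, 22 without replicate 1 of 0 h and 1147 with TMM scaling. Such slopes were also fitted for each line, and the difference between them was called slower loss in CNOT1-AID cells for 3167 genes (18.8%) and faster loss for 158 (0.94%). These names give only the sign of the difference, so RNAs that rose in parental cells are counted as faster. Among the faster calls were 70 snoRNAs, a type with a parental median of 214% of the 0 h level at 12 h.

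These counts rest on the spike-in scale. Scaling by trimmed means (TMM), which sets the bulk of genes to no change, moved the median of all genes at 12 h from -0.22 to -0.02 and gave 3643 lower and 2249 higher genes; the same scaling gave 3426 slower and 2821 faster slope differences. The 12 h count of lower genes was 1313 without replicate 2 of 0 h and 1345 without replicate 2 of 12 h. That at 3 h was 417 and 320 without replicate 1 or 2 of 0 h and 441 without replicate 1 of 3 h, and that at 6 h was 1178 and 1008 without replicate 1 or 2 of 0 h and 955 without replicate 1 of 6 h. In the same leave-outs the 12 h counts of the histone, snoRNA host, microRNA host, immediate early and NF-kB lists stayed within 1.5 times of those given for them here. The smallest falls that passed the test left 59.6% of the 0 h level at 3 h, 62.5% at 6 h and 63.4% at 12 h, so smaller losses were not detectable with these libraries.

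Most of what fell stayed low. Of the 736 genes lower at 3 h, 716 were also lower at 6 h and at 12 h, and 660 genes were lower at 12 h alone. Among all genes lower at 12 h, 541 kept under 1/8 of their 0 h level, 459 kept 1/8 to 1/4, 860 kept 1/4 to 1/2 and 517 kept more than 1/2. Protein-coding genes made up 140 of the 541 most depleted, out of 12660 protein-coding genes tested, and genes of other types made up 401.

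**Figure D1:**
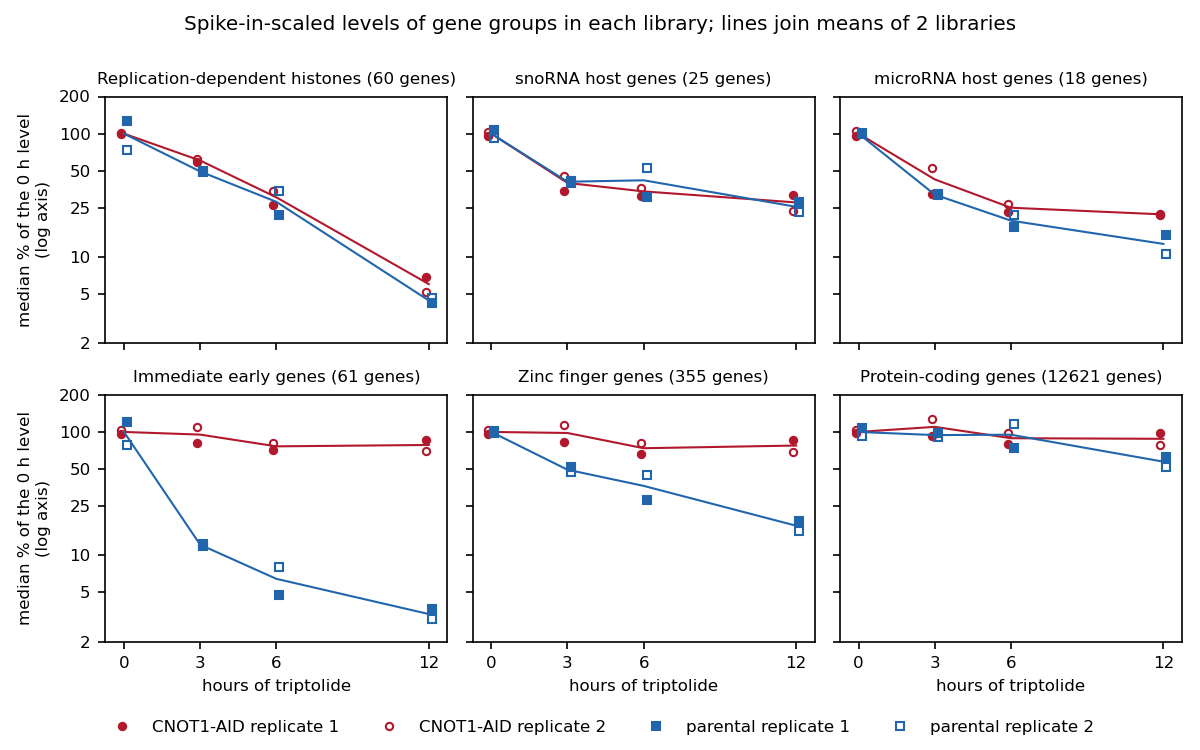
Median level (% of the 0 h mean, log axis) of 6 gene groups in each library against hours of triptolide, with CNOT1-AID libraries in red and parental libraries in blue. Histone mRNAs and snoRNA host genes lie at similar levels in both lines, and microRNA host genes fall in both. Immediate early and zinc finger genes stay between 66.1% and 114% from 3 h on in CNOT1-AID libraries.

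Replication-dependent histone mRNAs, which supply the core and linker histones of replicating chromatin, fell in 59 of 60 tested members by 12 h, against 15.2% of all genes. The median member kept 60.9% at 3 h, 30.2% at 6 h and 6.08% at 12 h. Only 24 of the 60 passed the test at 3 h. The half-lives from the fitted slopes had a median of 2.96 h and ran from 2.11 h to 6.67 h. Histone mRNA levels follow S phase, and the cell cycle state of the cells was not measured.

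HIST1H3J, an H3 gene, had 2408 and 2639 spike-in-scaled counts at 0 h in CNOT1-AID cells, 1209 and 1150 at 3 h, 498 and 527 at 6 h, and 63.6 and 46.0 at 12 h. In parental cells it had 2723 and 1881, 1022 and 1027, 393 and 518, and 32.3 and 33.7 at the same times. The levels of each time lay below those of the time before in both lines with no overlap. The fall at 12 h was -5.53 ± 0.32 on the log2 scale (SE, adjusted p = 4.2e-65, edgeR), with a half-life of 2.19 h (95% interval 2.08 to 2.31). The slope difference between the lines was 0.04 per hour on the log2 scale, with a 95% interval of -0.03 to 0.12. Intervals of slope differences below are also at 95%. HIST1H2AK, an H2A gene, fell by 5.79 on the log2 scale at 12 h, with 43.8% left at 3 h.

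HIST1H4B, whose 3′ end is printed above, had 3182 and 3152 counts at 0 h in CNOT1-AID cells, 1523 and 1498 at 3 h, 633 and 793 at 6 h, and 95.4 and 94.5 at 12 h. Parental cells had 3977 and 2950, 1296 and 1465, 483 and 644, and 35.2 and 49.0. The 12 h levels of the lines did not overlap, and its loss was called slower in CNOT1-AID cells by 0.10 per hour (adjusted p = 0.0425), a call lost under 13 of 24 other settings. The neighbouring H4 gene HIST1H4C went the other way. It had 288 and 229 counts at 12 h in CNOT1-AID cells against 5074 and 4837 at 0 h. In parental cells it had 537 and 625 at 12 h against 4135 and 3553 at 0 h, and its loss was faster in CNOT1-AID cells by -0.13 per hour (interval -0.20 to -0.07, adjusted p = 0.0017).

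Over the whole histone list, in the fit of all 24 libraries, 58 of 60 members were lower at 12 h in CNOT1-AID cells and 59 of 60 in parental cells. The median member kept 6.08% in CNOT1-AID cells and 4.56% in parental cells. Loss was called slower in 3 members and faster in 1, against 18.8% and 0.94% of all genes. The member not called lower in the 8 libraries was HIST2H3A, at -2.80 on the log2 scale (adjusted p = 0.13). Its replicates differed widely, with 5036 and 1819 counts at 0 h, and it has near-identical copies between which the reads could have been split. Other histone genes also have close copies, so single members are less certain than the group. HIST3H2A kept the most of the 60, at a 12 h change of -1.89.

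**Figure D2:**
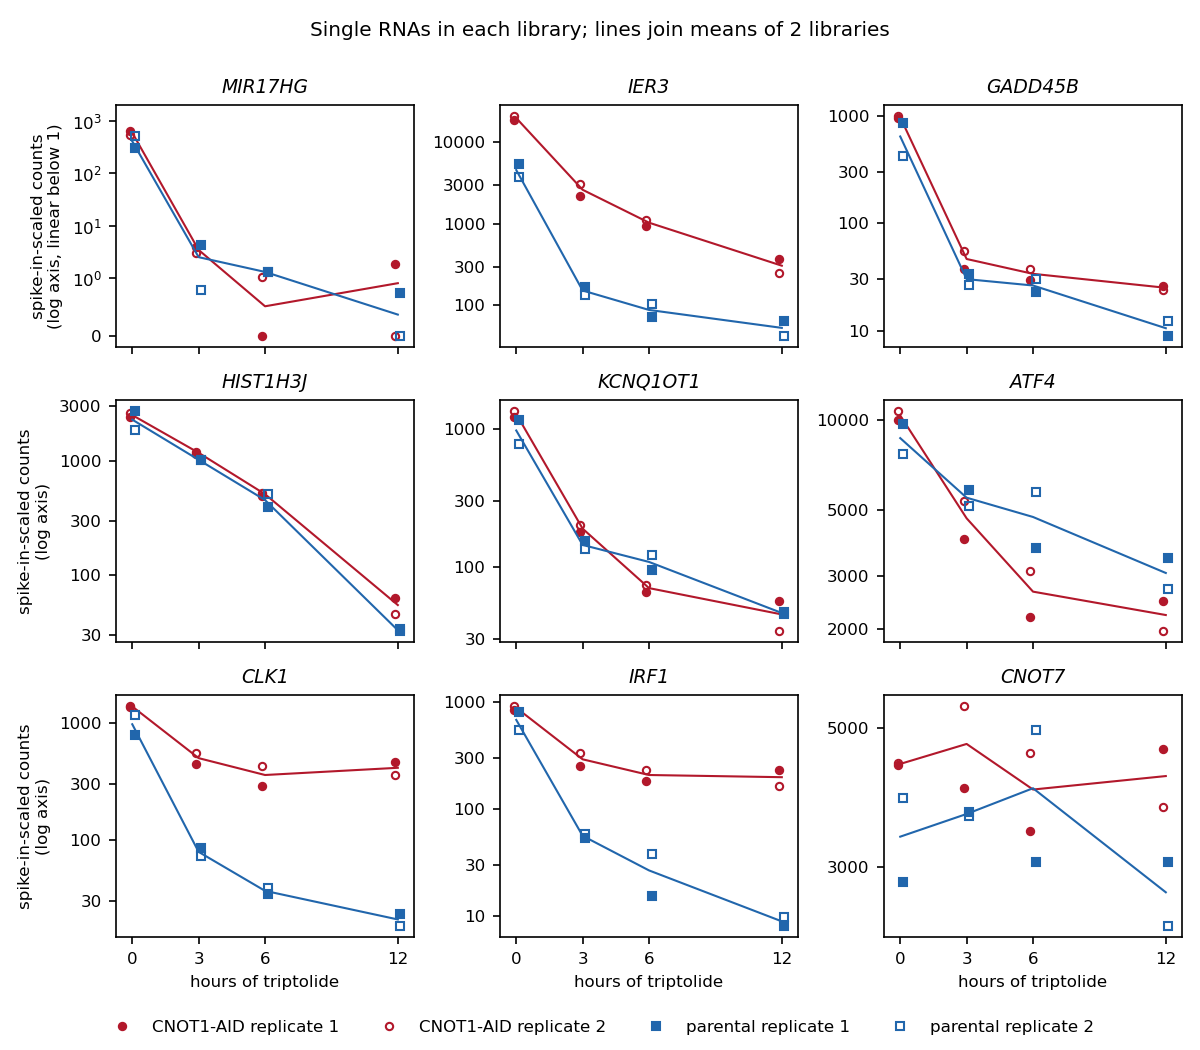
Spike-in-scaled counts (log axis) of 9 RNAs in each library against hours of triptolide, CNOT1-AID in red and parental in blue, with lines through the means of 2 libraries. MIR17HG, IER3, GADD45B, HIST1H3J and KCNQ1OT1 fall in both lines, ATF4 falls part of the way in both, CLK1 and IRF1 fall less in CNOT1-AID than in parental cells, and CNOT7 changes little in CNOT1-AID cells.

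Several host transcripts of microRNAs were almost gone within 3 h. Of 19 tested, 8 were lower at 3 h and 12 at 12 h, against 4.7% and 15.2% of all genes. MIR17HG, the primary transcript of the miR-17-92 cluster (chr13:91347820-91354579, plus strand), had 654 and 549 counts at 0 h in CNOT1-AID cells, 3.84 and 3.01 at 3 h, 0 and 1.02 at 6 h, and 1.82 and 0 at 12 h. Parental cells had 312 and 514, 4.19 and 0.790, 1.30 and 1.30, and 0.734 and 0. Nearly all of it was gone at the first time point in both lines. At 6 h, 1 read was left over both CNOT1-AID libraries against 978 at 0 h, a ratio of 1399.9 with a counting interval of 251 to 55348, and at 12 h 2 reads were left, a ratio of 713 (197 to 5900). These intervals cover counting error only.

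MIR222HG, host of miR-221 and miR-222, had 319 and 296 counts at 0 h in CNOT1-AID cells, 2.88 and 18.1 at 3 h, 5.24 and 3.06 at 6 h, and 0.909 and 4.76 at 12 h. MIR22HG, the host of miR-22, kept 3.23% at 3 h and then levelled off, with 16.4 and 14.3 counts at 12 h against 370 and 412 at 0 h. The 12 h levels of both hosts lay far below their 0 h levels with no overlap. Within the whole list the median host kept 23.6% at 12 h in CNOT1-AID cells and 14.0% in parental cells, with 11 of 19 lower in CNOT1-AID cells and 15 of 19 in parental cells (all genes, 12.4% and 49.6%). Slope differences were called in 0 of the 19 by edgeR and in 0 by DESeq2, with 1 slower at an unadjusted p below 0.05. Over all genes edgeR called 18.8% slower and 0.94% faster. For hosts nearly gone at 3 h a slope over 12 h cannot compare the lines. The SE of the difference was 1.99 per hour for MIR17HG and 0.34 for MIR222HG.

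Hosts of small nucleolar RNAs, whose introns carry the snoRNAs and whose spliced RNA is often a target of NMD, were lower in 16 of 25 tested members at 3 h and in 21 at 12 h, against 4.7% and 15.2% of all genes. SNHG12 had 1984 and 2130 counts at 0 h in CNOT1-AID cells, 294 and 384 at 3 h, 219 and 262 at 6 h, and 192 and 183 at 12 h. Parental cells had 1779 and 1525, 300 and 323, 209 and 325, and 228 and 158. Most of the loss lay in the first 3 h in both lines, and the 12 h levels of the lines overlapped. The slope difference was -0.03 per hour (interval -0.19 to 0.13). GAS5, a host that also acts as a long non-coding RNA, changed by -2.98 at 12 h in CNOT1-AID cells and by -1.97 in parental cells on the log2 scale of the 24-library fit.

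For the snoRNA host list as a whole, the median member kept 25.8% at 12 h in CNOT1-AID cells and 25.5% in parental cells, with 19 of 25 members lower in each (all genes, 12.4% in CNOT1-AID cells and 49.6% in parental cells). Loss was called slower in CNOT1-AID cells for 2 of the 25. In 11 of the 25 the rate of the first 3 h was called faster than the later rate, against 1.65% of all genes. The wider list of NMD factors and reporter transcripts had 19 of 34 members lower at 12 h, against 15.2% of all genes. Its lost members were mostly reporter transcripts such as GAS5, SNHG1 at -2.54, ATF4 and NAT9 at -1.84, while among the factors SMG9 at -2.42, UPF1 at -1.41 and SMG1 at -1.24 were lower and UPF3A at 0.02 was not called. It shares host genes with the previous list, so the lists are not separate evidence.

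Other long non-coding RNAs fell by varying amounts. Of 21 in the list of nuclear and cytoplasmic long non-coding RNAs, 12 were lower at 12 h, against 15.2% of all genes, and 7 without either 0 h library or without replicate 2 of 12 h. KCNQ1OT1, the antisense RNA of an imprinted locus, had 1223 and 1344 counts at 0 h in CNOT1-AID cells, 179 and 200 at 3 h, 65.9 and 74.5 at 6 h, and 56.3 and 34.1 at 12 h, and parental cells had 1171 and 781, 154 and 134, 94.7 and 123, and 45.5 and 47.2. The lines overlapped at 12 h, and the slope difference was -0.05 per hour (-0.24 to 0.14). NEAT1, the RNA core of paraspeckles, behaved otherwise: it had 3029 and 4237 counts at 3 h in CNOT1-AID cells against 3464 and 3951 at 0 h, which overlapped, and fell by 2.78 on the log2 scale by 12 h. MALAT1, a nuclear speckle RNA, was at 0.21 with no call at 12 h (adjusted p = 0.75). By annotated type, 89 of 140 sense-intronic RNAs, 247 of 582 lincRNAs and 252 of 645 antisense RNAs were lower at 12 h, against the same 15.2%. That share is mostly one of mRNAs. Of all tested genes that are not protein-coding, 58.9% were not called at 12 h, 1.27% were higher and the rest were lower. Without replicate 2 of 0 h these counts were 59, 153 and 127, and without replicate 2 of 12 h lincRNAs gave 141 and antisense RNAs 130. Whether the counting used strand is not given in the sources used here, so reads of antisense and overlapping genes may belong to their partners.

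Among mRNAs other than histones, losses to under 1/8 were few. Of 10223 protein-coding genes at 5 or more CPM at 0 h, 193 were lower at 3 h, 705 at 6 h and 908 at 12 h, and 31 that are no histone genes kept under 1/8 at 12 h. Over all 12660 protein-coding genes tested, 1184 were lower at 12 h, and 671 and 514 without replicate 1 or 2 of 0 h and 518 without replicate 2 of 12 h. These 31 were chosen on the 12 h values and are described without a test. Each of them was already called lower at 3 h, with a median of 21.7% left, and their half-lives ran from 2.05 h to 4.12 h where one could be fitted (27 genes, median 3.48 h). In the 24-library fit their median was 9.53% at 12 h in CNOT1-AID cells and 5.19% in parental cells.

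IER3, an early response gene that modulates apoptosis (chr6:30743199-30744554, minus strand), was the most depleted of them. It had 19038 and 20839 counts at 0 h in CNOT1-AID cells, 2181 and 3076 at 3 h, 951 and 1124 at 6 h, and 368 and 248 at 12 h. Parental cells had 5454 and 3727, 170 and 135, 72.0 and 104, and 64.6 and 41.6. The CNOT1-AID libraries were higher than the parental ones at every time with no overlap, including 0 h. The change at 12 h was -6.02 ± 0.31 (SE, adjusted p = 1.7e-80, edgeR), and the slope difference was 0.04 per hour with an interval of -0.23 to 0.31. At 3 h IER3 kept 13.2% in CNOT1-AID cells, and its 3 h change was -2.92 there against -4.91 in parental cells in the fit of both lines.

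GADD45B, a stress-induced regulator of p38 and JNK signalling, had 961 and 994 counts at 0 h in CNOT1-AID cells, 37.4 and 55.7 at 3 h, 29.9 and 37.8 at 6 h, and 26.3 and 23.8 at 12 h. Parental cells had 865 and 430, 33.5 and 26.9, 22.7 and 30.0, and 8.81 and 12.2. Most of it was gone by 3 h in both lines. MAP3K14, the NF-kB-inducing kinase, had 67.2 and 46.0 counts at 12 h against 1561 and 1701 at 0 h in CNOT1-AID cells. Parental cells had 67.5 and 61.9 at 12 h against 1726 and 1006 at 0 h, and the 12 h levels of the lines overlapped. NFKBIZ, a nuclear IkB protein, kept 14.7% at 3 h in CNOT1-AID cells and had 11.8 and 23.0 counts at 12 h, against 368 and 328 at 0 h.

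ZC3H12A (Regnase-1), an endonuclease that cuts mRNAs of inflammation, kept 18.4% at 3 h and fell by 3.88 at 12 h, against a change of -3.92 in parental cells. KLF6, a zinc finger transcription factor, fell by 3.96 and PPP1R15A, the stress-induced regulator of eIF2α dephosphorylation, by 3.94. Their changes in parental cells were larger, at -5.37 and -5.72. ADM, which encodes adrenomedullin, fell by 3.87 and MSH6, a mismatch repair protein, by 3.18, against changes of -5.81 and -3.80 in parental cells. ATXN7 is also among the 31 but has a second gene ID that overlaps it, and its 3 h call was lost without either 3 h library.

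**Figure D3:**
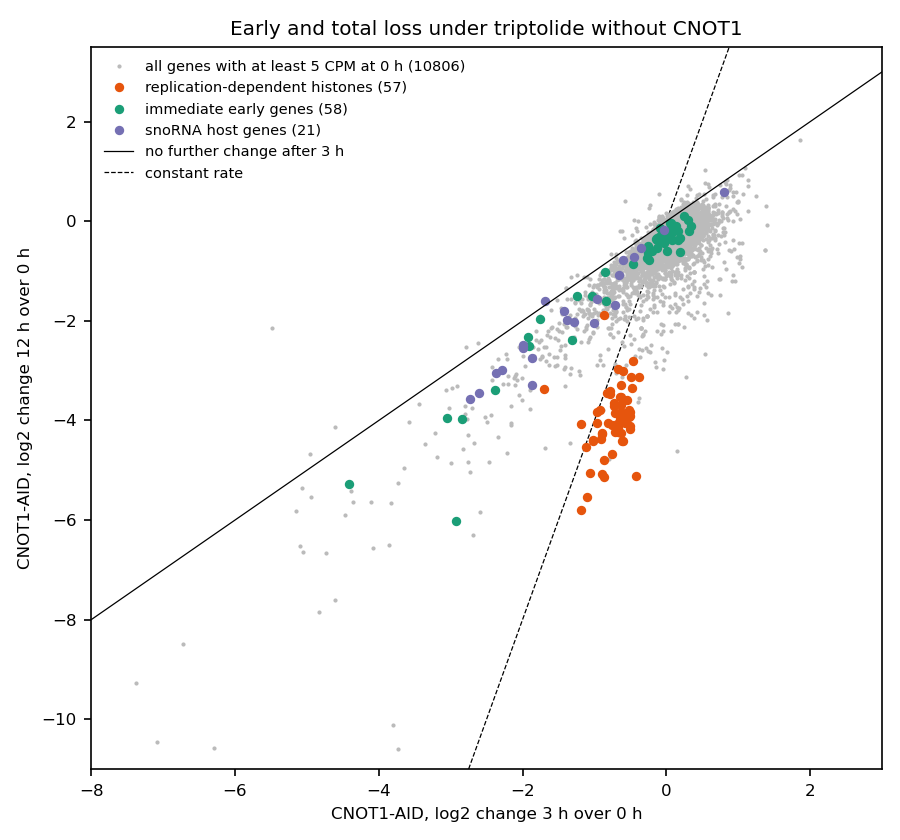
Log2 change at 3 h (x) against that at 12 h (y) in CNOT1-AID cells for single genes, with gene groups coloured. The solid line marks no further change after 3 h and the dashed line a constant rate. Most histone mRNAs lie near or right of the dashed line. Most of the deepest early losses lie between the lines, while MIR22HG and ATXN7 lie above the solid line.

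The time course was front-loaded for RNAs that fell early. Of 312 genes at 5 or more CPM that were lower at 3 h, the rate was called different between the first 3 h and the rest in 140, and in all 140 it was faster early. The median of the 312 had reached 65.1% of its 12 h log2 loss at 3 h. This choice of genes called at 3 h favours early loss, so the counts describe these genes and no more. Over all genes 258 (1.65%) were called faster early and 418 (2.67%) faster late. Leaving out 1 library gave 120 to 291 faster early (138 and 120 without replicate 1 or 2 of 0 h, 161 without replicate 1 of 3 h) and 143 to 921 faster late (143 and 207 without replicate 1 or 2 of 0 h, 921 and 208 without replicate 1 or 2 of 3 h). TMM scaling turned the order, with 1365 faster early and 1179 faster late. Because a straight line was fitted through such curves, half-lives of the early group understate the first loss, and the share left at 3 h is given beside them.

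Immediate early and feedback genes divided into a small lost part and a large retained one. Of 61 tested in the CNOT1-AID libraries, 13 were lower at 3 h and 16 at 12 h, against 4.7% and 15.2% of all genes. In the fit of both lines 14 of 60 were lower at 12 h in CNOT1-AID cells and 60 of 60 in parental cells (all genes, 12.4% and 49.6%), with a median of 78.8% left in CNOT1-AID cells and 3.34% in parental cells. Loss was called slower in CNOT1-AID cells for 45 of the 60, against 18.8% of all genes. The lost members beside IER3, GADD45B, KLF6 and PPP1R15A included IER2, JUN at -2.50, ID1 at -2.38, ATF3 at -2.31 and GADD45A at -1.97.

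Retained members are given for contrast and were chosen after their values were seen. MCL1, a short-lived survival factor, had 8284 and 8610 counts at 0 h in CNOT1-AID cells, 6589 and 9369 at 3 h, 6010 and 6942 at 6 h, and 7534 and 6085 at 12 h. Parental cells had 4332 and 4145, 788 and 707, 273 and 434, and 181 and 143. In CNOT1-AID cells the 3 h levels overlapped those of 0 h, and the 6 h and 12 h levels lay below them. Each parental time from 3 h on also lay below 0 h, and by far more. MYC changed by -0.40 at 12 h in CNOT1-AID cells, with no call (adjusted p = 0.36), and by -6.86 in parental cells. NFKBIA, the IkBα inhibitor of NF-kB, changed by -0.22 in CNOT1-AID cells, again with no call, and by -7.12 in parental cells. DUSP6, a phosphatase of ERK, lay between, with a fall of 1.51 in CNOT1-AID cells and a change of -7.83 in parental cells.

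Lost and retained members could both carry the letters TATTTAT, the core of AU-rich elements. The windows of 25 bases are from GENCODE 29 transcripts (GRCh38) on the mRNA strand, with the match in capitals. IER3, KLF6 and ATF3 were lost, while MCL1, FOSL1 and BTG2 were not called lower.
IER3: cctaattaaTATTTATatgtattta
KLF6: tgtttctctTATTTATgccttgagg
ATF3: aatattactTATTTATcctagtatt
MCL1: ctctacagaTATTTATatcaattcc
FOSL1: ggcagctgcTATTTATtttcctaaa
BTG2: atgaagagcTATTTATatatattat
They lie at chr6:30743655-30743679 (minus), chr10:3778343-3778367 (minus), chr1:212620706-212620730 (plus), chr1:150575809-150575833 (minus), chr11:65892274-65892298 (minus) and chr1:203307530-203307554 (plus). Of the 29 deeply lost non-histone mRNAs with a 3′ UTR 10 held these letters (34.5%), and of 9232 mRNAs that were not called lower 3198 did (34.6%). Per kb of 3′ UTR the matches numbered 0.503 in the deeply lost mRNAs and 0.329 in those not called lower. The shorter ATTTA went the other way, in 55.2% and 71.8% of them. The search was made on the transcript strand, overlapping matches counted, and a match is no measured binding site.

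**Figure D4:**
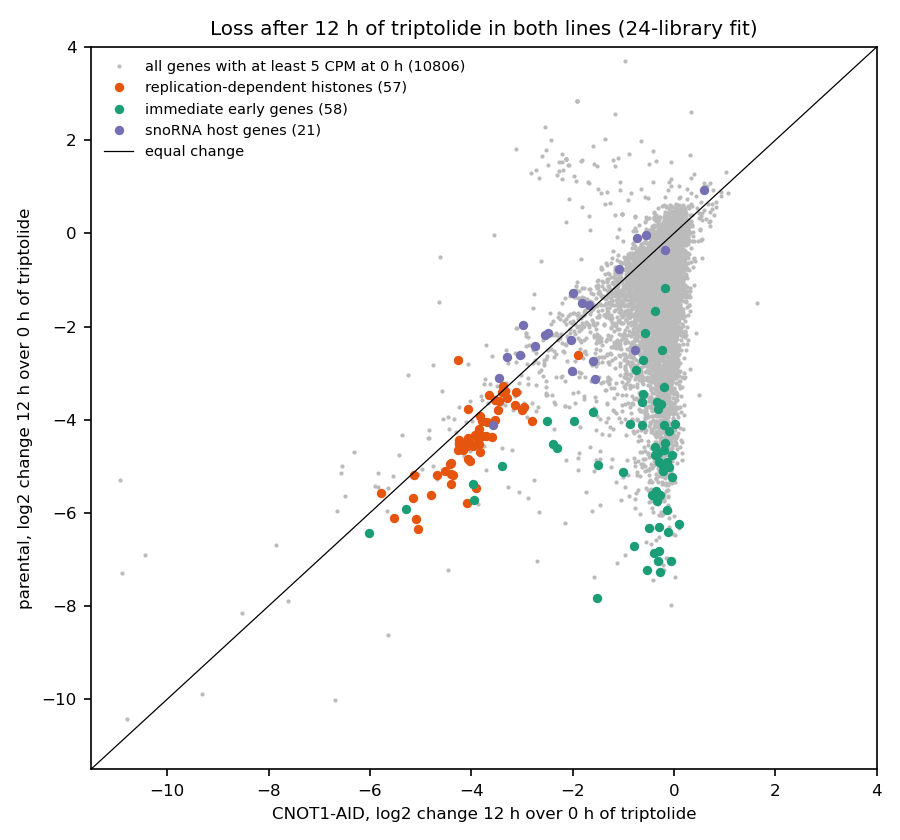
Log2 change at 12 h in CNOT1-AID cells (x) and parental cells (y) for 10806 genes at 5 or more CPM, from the fit of both lines. Histone genes and snoRNA hosts lie along the diagonal, while most immediate early genes lie near 0 on the CNOT1-AID axis and far below 0 on the parental axis.

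Zinc finger genes, whose mRNAs encode short-lived regulators, were lower in 65 of 355 tested members at 12 h in CNOT1-AID cells, in 37 and 28 without replicate 1 or 2 of 0 h, and in 28 without replicate 2 of 12 h. The 65 make up 18.3% of the list, against 15.2% of all genes and 9.35% of protein-coding genes. In the fit of both lines the counts were 47 of 355 in CNOT1-AID cells and 333 of 355 in parental cells, against 12.4% and 49.6% of all genes, with medians of 77.4% and 17.6% left in that order of lines. ZNF581 was an exception with a fall of 3.70 on the log2 scale, and it kept 22.3% at 3 h. NF-kB targets were lower in 10 of 21 members at 12 h, against 15.2% of all genes. In the 24-library fit 9 of 21 were lower in CNOT1-AID cells and 19 of 21 in parental cells, with the same background shares as the zinc finger genes. With TMM scaling, 26 immediate early genes and 121 zinc finger genes were lower in CNOT1-AID cells, against the shifted median given above.

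Some mRNAs fell only part of the way in CNOT1-AID cells. CLK1, a kinase of SR splicing factors, had 1396 and 1374 counts at 0 h in CNOT1-AID cells, 443 and 559 at 3 h, 290 and 429 at 6 h, and 466 and 363 at 12 h. Parental cells had 788 and 1164, 85.5 and 72.7, 34.4 and 39.1, and 23.5 and 18.4. The 3 h and 12 h levels overlapped in CNOT1-AID cells, while the parental level went on falling. IRF1, an interferon response factor, had 233 and 163 counts at 12 h against 845 and 910 at 0 h in CNOT1-AID cells. Parental cells had 8.08 and 9.80 at 12 h against 807 and 546 at 0 h, and its slope difference was 0.38 per hour (0.16 to 0.61).

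Stress response genes gave both patterns. ATF4, the transcription factor of the integrated stress response, had 9980 and 10658 counts at 0 h in CNOT1-AID cells, 4010 and 5355 at 3 h, 2200 and 3131 at 6 h, and 2488 and 1965 at 12 h, and parental cells had 9643 and 7702, 5842 and 5132, 3716 and 5746, and 3441 and 2713. The 12 h levels were lower in CNOT1-AID cells with no overlap, but the slope difference, -0.06 per hour with an interval of -0.13 to 0.02, was not called. DDIT3 (CHOP), a target of ATF4, had 49.1 and 41.3 counts at 12 h against 282 and 306 at 0 h in CNOT1-AID cells. Parental cells had 2.20 and 1.22 at 12 h against 281 and 186 at 0 h, and its loss was slower in CNOT1-AID cells by 0.54 per hour (0.27 to 0.81). Of 25 genes of this response 7 were lower at 12 h in CNOT1-AID cells, and 4 without replicate 2 of 0 h or of 12 h, against 15.2% of all genes with every library in the fit.

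**Figure D5:**
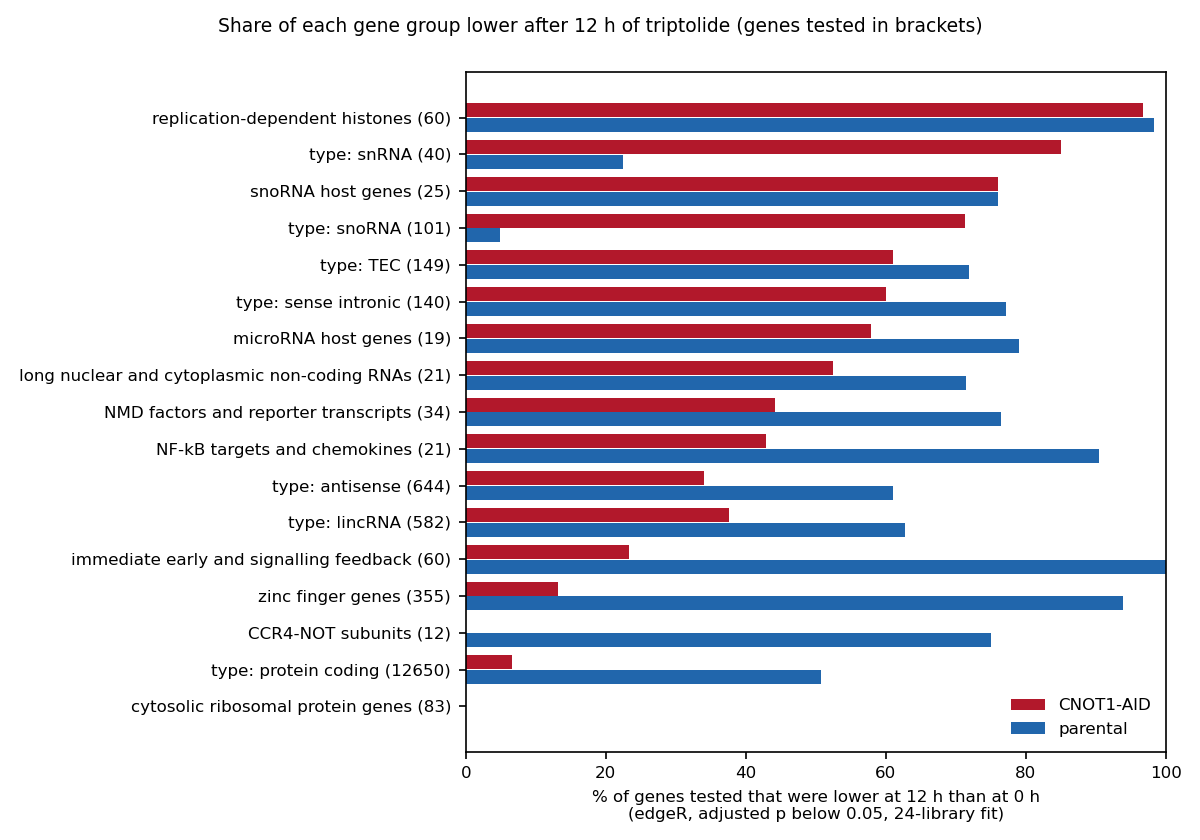
Percentage of the tested members of each group that were called lower at 12 h in the fit of both lines, CNOT1-AID (red) above parental (blue). The bars of histones and snoRNA hosts are of like length in both lines, those of immediate early, zinc finger and protein-coding genes are shorter in CNOT1-AID cells, and those of snoRNAs and snRNAs are longer in CNOT1-AID cells.

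Many snoRNAs, snRNAs and other short RNAs fell in CNOT1-AID cells, while few of them fell in parental cells. Of 102 annotated snoRNAs, which guide modification of ribosomal RNA, 77 were lower at 12 h, against 15.2% of all genes. In the 24-library fit their median was 26.1% left in CNOT1-AID cells and 214% in parental cells, with 72 and 5 called lower in these lines. The slope was called more negative in CNOT1-AID cells for 70 of 101, against 0.94% of all genes. For snRNAs and their copies, 37 of 41 were lower at 12 h, with 22.8% left in CNOT1-AID cells and 175% in parental cells in the fit of both lines, where 34 were lower in CNOT1-AID cells and 9 in parental cells. With TMM scaling the 12 h counts of lower snoRNAs and snRNAs were 50 and 24.

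RNY1, a Y RNA bound by Ro60, had 2583 and 2656 counts at 0 h in CNOT1-AID cells, 4483 and 3142 at 3 h, 1812 and 1056 at 6 h, and 443 and 383 at 12 h. Parental cells had 447 and 844, 1320 and 996, 993 and 2403, and 1158 and 1795. The 0 h levels were higher and the 12 h levels lower in CNOT1-AID cells, both with no overlap. RN7SK, the 7SK RNA that holds P-TEFb, was not called in CNOT1-AID cells at -0.09. Of the 12 abundant structured RNAs in the list 7 were lower at 12 h in CNOT1-AID cells, against 15.2% of all genes. In the 24-library fit 5 were, against 12.4% of all genes. The vault RNA VTRNA1-1 at -3.24 and the Y RNA RNY4 at -2.15 were among the 7, but both had few reads. VTRNA1-1 had 34.0 and 15.7 counts at 0 h and 1.82 and 3.18 at 12 h. RNY4 had 45.7 and 44.5 at 0 h and 7.27 and 12.7 at 12 h. BCYRN1 was called lower at -0.82 in CNOT1-AID cells in the 8 libraries, but not in the 24-library fit (edgeR, adjusted p = 0.119). In that fit it was called lower in parental cells at -0.92, though the counts there overlapped, with 562 and 128 at 0 h and 215 and 148 at 12 h. RPPH1, RN7SL1 and RN7SL2 were not called in CNOT1-AID cells, at -0.17, -0.06 and 0.09. As a share of all reads, snoRNAs took 0.136% and 0.134% at 12 h against 0.322% and 0.300% at 0 h in CNOT1-AID libraries, and 0.315% and 0.582% at 12 h against 0.175% and 0.167% at 0 h in parental libraries. The share of reads from short RNAs thus moved with these results, and the part that library preparation has in it was not tested. Reads within host introns could also not be separated from those of the snoRNAs.

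Large groups of mRNAs were not detectably lost. Of 83 cytosolic ribosomal protein genes 0 were lower at 12 h by edgeR and 0 by DESeq2, with 1 at an unadjusted p below 0.05 and a median of 96.4% left. The proteasome gave 0 of 37 and housekeeping genes 0 of 22, by edgeR, by DESeq2 and at an unadjusted p below 0.05. Of 41 G2/M genes, which drive mitosis, 0 were lower by edgeR and by DESeq2 and 1 at an unadjusted p below 0.05 in CNOT1-AID cells, while 29 of 41 were lower in parental cells in the fit of both lines. Of 78 mitochondrial ribosomal protein genes 0 were lower by edgeR, 1 by DESeq2 and 2 at an unadjusted p below 0.05 in CNOT1-AID cells, against 44 in parental cells, where 49.6% of all genes were lower. In counts simulated on these libraries 72 of 100 genes made to fall to 1/2 were recovered, so smaller falls may be missed.

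Mitochondrially encoded genes, which are transcribed by an RNA polymerase that triptolide does not target, were lower in 0 of 17 by edgeR and by DESeq2, with 2 at an unadjusted p below 0.05. At 12 h they were higher in 9 by edgeR and 5 by DESeq2, against 0.677% of all genes by edgeR, with a median of 165%. At 3 h 11 of the 17 were already higher by edgeR, against 1.99% of all genes, with a median of 180%. In parental cells 7 of the 17 were higher at 12 h in the fit of both lines, against 331 of all 16806 genes. MT-ND3, a subunit of complex I, changed by 1.08 ± 0.25 (SE, adjusted p = 0.0002). The calls of MT-ND3, MT-ND4, MT-ND5 and MT-CYB were each lost without replicate 1 of 0 h and without replicate 1 of 12 h. BACH2, a transcription factor, was among the few nuclear genes called higher, with 184 and 147 counts at 12 h against 83.2 and 96.8 at 0 h, but its call was lost without either 0 h library or replicate 1 of 12 h. PPAN-P2RY11, a readthrough transcript, was also called higher, a call lost under every gene-based scaling.

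Of the mRNAs for the 12 CCR4-NOT subunits themselves, 1 was lower at 12 h (8.33%), near the 9.35% of protein-coding genes and below the 15.2% of all genes. CNOT1 had 5800 and 5718 counts at 0 h in CNOT1-AID cells, 4365 and 6061 at 3 h, 3528 and 4055 at 6 h, and 3638 and 3058 at 12 h. The 12 h and 0 h levels did not overlap, and the change was -0.78 (adjusted p = 0.0137), a call lost in the 24-library fit and without either 0 h library or replicate 2 of 12 h. The other 11 subunits kept 81.1% to 113% and were not called. In the 24-library fit the median subunit kept 92.2% in CNOT1-AID cells and 41.8% in parental cells, where 9 of 12 were lower, against 49.6% of all genes.

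The deeply lost non-histone mRNAs differed in gene structure from the rest as a description. Over those with an annotated transcript the median third-position GC content of the coding sequence was 72.7%, against 56.8% in mRNAs that were not called lower, and the median number of exons was 5 against 10. Without histones, the classes that kept 1/8 to 1/4, 1/4 to 1/2 and more than 1/2 had a GC content of 66.2%, 69.1% and 66.8%. The median number of exons in those classes was 5.5, 8 and 9.

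In the separate samples without triptolide, auxin for 8 h lowered 4441 of 14921 genes (29.8%) and raised 4933 (33.1%) relative to untreated CNOT1-AID cells, and auxin for 24 h lowered 5198 (34.8%) and raised 5472 (36.7%), by limma on log2(TPM + 0.5). These libraries had no spike-in scale in use, and without rescaling the 8 h counts were 2251 lower and 6624 higher. Of the groups that went on decaying, histone mRNAs and snoRNA hosts were mostly lower there at 24 h. Histone mRNAs were higher in 7 and lower in 39 of 60 members at 24 h, with a median log2 change of -0.60, and snoRNA hosts were higher in 1 and lower in 22 of 25, with a median of -0.71. Immediate early genes were higher in 42 and lower in 13 of 60, with a median of 1.14, and zinc finger genes were higher in 271 and lower in 30 of 347, with a median of 0.92. Of the deeply lost non-histone mRNAs, 12 of 30 measured were higher at 24 h (40%), near the 36.7% of all genes, and 13 were lower, against 34.8% of all genes.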

How the data were processed

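RNA-seq was analysed from the 8 CNOT1-AID libraries under triptolide, with the 8 parental ones, the 8 CNOT4-AID ones (only to estimate spread) and the CNOT1-AID libraries without triptolide. Libraries were a stranded total RNA preparation after removal of ribosomal RNA, with ERCC spike-ins added to 500 ng of RNA, per the labels' protocols. The triptolide table holds raw read counts per gene as deposited by the authors, and the other table holds TPM values that the authors computed. STAR 2.5.1b, RSEM, featureCounts, SAMtools and DESeq2 and the build hg38 are named per the submitters' processing notes, which do not say whether counting used strand.

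The test was edgeR's robust quasi-likelihood fit (version 4.0.16, after filterByExpr, 15652 genes), with library size replaced by the summed counts of the 54 ERCC sequences with a mean of at least 10. Times were group means (4 residual degrees of freedom), or a linear slope per hour. Differences between lines came from 1 fit of 24 libraries (16806 genes, 56 ERCC sequences). Spike-in-scaled counts are counts divided by summed ERCC counts, times the mean ERCC sum of the CNOT1-AID libraries. Standard errors were the log2 change over the square root of F, and half-lives came from slopes that passed the test. TPM values were scaled by TMM and tested with limma 3.58.1 on log2(TPM + 0.5) for 14921 genes with at least 1 TPM in 2 libraries, so fold changes of low genes are understated. Adjusted p-values are Benjamini-Hochberg values with a threshold of 0.05. DESeq2 1.42.0 was an alternative. On simulated counts of 15652 genes the 12 h comparison recovered 100 of 100 genes set to a log2 change of -2 and 72 of 100 at -1, and the slope difference (16806 genes) recovered 91 of 100 at 0.167 per hour and 11 of 100 at 0.0833.

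Named genes were the 12 largest falls and 8 largest rises at 12 h at 5 or more CPM with libraries that did not overlap, the 8 largest falls at 3 h, the steepest declines with and without a slope difference, up to 4 called members of each list, and the CCR4-NOT subunits. RNAs with clone or small-RNA names were passed over, and genes outside this rule are examples chosen after their values were seen. The members and the gene lists were chosen with earlier results of these data known.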

Additional observations from a re-analysis of the deposited data

Results flagged for a closer look

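Among RNAs that declined in CNOT1-AID cells, 13 gene entries had a slope that differed between the lines by the test of the difference itself, out of the steepest declines on each side. Values are CNOT1-AID minus parental, in log2 per hour, so a positive value means slower loss in CNOT1-AID cells. Slower were DDIT3 at 0.538, IRF1 at 0.384, ITPRIP at 0.260, KCNK5 (a potassium channel) at 0.249, RNF227 at 0.192, and 3 histone genes, HIST1H3E at 0.143, HIST1H4A at 0.119 and HIST1H4B at 0.105. Faster were RNY1 at -0.355, the 2 gene entries of RMRP (the RNA of RNase MRP) at -0.297 and -0.105, HIST1H4C at -0.132 and NEAT1 at -0.109. RNY1 and the first RMRP entry rose in parental cells, by 1.19 and 2.55 on the log2 scale at 12 h, so their difference is not one of loss alone. That RMRP entry had 37386 and 31412 spike-in-scaled counts at 0 h in CNOT1-AID cells, against 3060 and 6901 in parental cells. The RMRP entries overlap, so their reads may be split between them. DDIT3, HIST1H4C, RNY1 and the first RMRP entry kept their call under every alternative that was run, and the other 9 lost it under at least 1.

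KCNK5 had 32.3% left at 3 h in CNOT1-AID cells, and at 12 h it had changed by -2.89 in CNOT1-AID cells and by -5.68 in parental cells. NEAT1 had 587 and 492 spike-in-scaled counts at 12 h in CNOT1-AID cells, against 1087 and 804 in parental cells, after 3464 and 3951 at 0 h in CNOT1-AID cells and 3016 and 2735 in parental cells.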

How the results depend on the processing

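The counts moved with the scaling and with single libraries. With TMM, DESeq2 size factors and library size, in that order, lower genes numbered 2194, 2132 and 2367 at 3 h and 3137, 2948 and 3395 at 6 h, and higher genes 1235, 1370 and 924 at 3 h, 1706, 2144 and 1127 at 6 h and 2249, 2837 and 1664 at 12 h. At 12 h lower genes were 3643 (TMM) and 3858 (library size), rising slopes 1147, 1620 and 842, genes faster early 1365, 1354 and 1467 and faster late 1179, 1201 and 940. Slope differences were faster for 2821, 2329 and 577 genes and slower for 4817 with library size. These scalings centre the bulk of genes, which moved the 12 h median to -0.02, 0.00 and -0.05. CNOT3 at 0.16 (adjusted p = 0.0308) and CNOT7 at 0.16 (adjusted p = 0.0197) turned positive with DESeq2 size factors. DESeq2 on the spike-in scale gave 451 lower and 157 higher at 3 h, 84 higher at 6 h, 60 higher at 12 h, 18 rising slopes, 158 faster early and 210 faster late. With 0 h to 6 h alone 1586 slopes fell and 77 rose, without a filter 54 rose, and in the 24-library fit 11 rose. Without rescaling, 2251 genes were lower at 8 h of auxin. For these counts the cause was not tested beyond the construction of each alternative. Histones stayed at 59 lower of 60 under the 3 gene-based scalings.

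Leaving out 1 library gave 320 to 835 lower and 107 to 555 higher genes at 3 h, 955 to 2516 and 86 to 224 at 6 h, and 1313 to 3183 and 57 to 145 at 12 h. Slopes gave 1687 to 3246 falling and 22 to 69 rising, early against late 120 to 291 and 143 to 921, slope differences 2201 to 3611 slower and 117 to 176 faster, 8 h of auxin 3886 to 4424 lower and 4449 to 4917 higher, and 24 h 4712 to 5295 and 4975 to 5539. Either 0 h, either 3 h, replicate 1 of 6 h and either 12 h library moved a count by over 1.5 times. Without replicate 1 of 3 h, 555 genes were higher at 3 h and 921 faster late, and without replicate 2 of 3 h 166 and 208. Without replicate 1 of 12 h, 68 genes were higher at 12 h. Of the 12 h calls of named genes, 69 of 528 in these fits were lost, among them CNOT1, NANOS1, FASN, BBC3 and the mitochondrial rises, and of the slope differences 67 of 208.

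Replicate numbers did not pair the libraries (correlations of deviations -0.12 to 0.18). With the replicate number as a block, 651 genes were lower and 259 higher at 3 h, 1643 and 160 at 6 h, 2110 and 92 at 12 h, 2364 slopes fell and 31 rose, and 2983 slope differences were slower and 141 faster, each within 1.5 times of the fit without it. Falls that left more than 63.4% at 12 h were not called at these depths, and what sets that limit was not tested.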
